A study of Mus musculus with 28 samples.

Results

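Plcb1, Smoc1, Chst2, Pard3b and Tmem121 are 5 genes whose RNA was close to absent from control plasmacytoid dendritic cells (pDCs) and present in pDCs of mice that delete Irf8 in dendritic cells. They were selected on the measured levels of these same libraries, for a mean under 1 CPM (counts scaled to a common library size) in control pDCs and over 10 CPM in pDCs carrying the Cre, outside gene families that an earlier listing had already named. They are 5 of the 15 genes that met both thresholds among the 24421 genes counted. That pattern is therefore how the genes were chosen, and the values for these 2 groups are given as a description with no test. The question put to the data was whether either conventional dendritic cell (cDC) subset expresses the 5 genes.

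The study sorted dendritic cells from the spleens of untreated C57Bl/6 mice aged 6 to 12 weeks and sequenced their RNA. Every group carried the floxed Irf8 alleles (Irf8fl/fl), so the controls differed from an unmodified mouse at that gene. Control groups without Cre were 8 libraries of pDCs (pDC WT), 8 of CD24+ cDC1s (cDC1 WT) and 8 of CD172a+ cDC2s (cDC2 WT). The deleted group was 4 libraries of pDCs from Irf8fl/fl Itgax-cre mice (pDC TG), called Itgax-cre pDCs here. Itgax encodes CD11c, and Cre driven by its regulatory sequence acts in dendritic cells generally, not in pDCs alone. No cDC library came from the Itgax-cre mice, and no source used here gives the gate for pDCs. The series' design text names 4 replicates per sample, whereas the 3 control groups have 8 libraries each.

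IRF8 is a transcription factor of the interferon regulatory factor family that pDCs and cDC1s express at high level and cDC2s at low level. It binds DNA poorly alone and commonly pairs with an ETS family partner such as PU.1, on a composite site that joins an ETS and an IRF motif, or with another IRF on paired GAAA repeats. pDCs are known for type I interferon production. cDC1s are known for presenting antigen to CD8 T cells and cDC2s for presenting it to CD4 T cells.

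The 5 proteins have unrelated roles. PLCB1 is a phospholipase C that Gq-coupled receptors activate to make the calcium-releasing messenger IP3 and diacylglycerol. SMOC1 is a secreted calcium-binding matrix protein of the SPARC family that modulates bone morphogenetic protein (BMP) signalling. CHST2 is a Golgi sulfotransferase that adds sulfate to N-acetylglucosamine on glycans, a step in making selectin ligands. PARD3B is a relative of the PAR-3 cell polarity scaffold. TMEM121 is a multi-pass membrane protein whose gene lies next to the immunoglobulin heavy chain locus.

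All 5 genes are protein coding, and their exons add up to very different lengths in the GRCm38 annotation. Plcb1 (chr2:134786067-135475258, plus strand) has 11.12 kb of exon in a span of 689.2 kb. Pard3b (chr1:61638824-62642284, plus strand) has 13.15 kb of exon. Chst2 (chr9:95399292-95406722, minus strand) has 7.328 kb. Smoc1 (chr12:81026808-81186414, plus strand) has 3.496 kb, and Tmem121 (chr12:113185930-113189523, plus strand) has 1.574 kb. The library kits do not mark strand, so reads of an antisense gene cannot be told from those of its partner. Antisense genes covered 1.6% of the exonic bases of Plcb1 and 4.43% of those of Pard3b, and no annotated gene overlapped the exons of the other 3.

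The DNA just before the start of 4 of the genes, from the RefSeq promoter table of GRCm38.p6, is shown because the deleted gene encodes a DNA-binding factor and the genes were chosen for moving together. Smoc1 had no entry. The stretches run 5′ to 3′ on the gene's own strand and end before any annotated transcribed base. Capitals mark matches on either strand to the ETS-IRF composite element (GGAA, 2 bases of any kind, then GAAA) and to the GC box (GGGCGG).
Plcb1, 153 bases, chr2:134785914-134786066, plus strand: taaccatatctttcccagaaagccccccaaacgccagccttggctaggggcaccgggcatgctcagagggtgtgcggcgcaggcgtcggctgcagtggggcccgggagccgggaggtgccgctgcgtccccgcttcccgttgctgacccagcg
Chst2, 250 bases, chr9:95407271-95407520, minus strand: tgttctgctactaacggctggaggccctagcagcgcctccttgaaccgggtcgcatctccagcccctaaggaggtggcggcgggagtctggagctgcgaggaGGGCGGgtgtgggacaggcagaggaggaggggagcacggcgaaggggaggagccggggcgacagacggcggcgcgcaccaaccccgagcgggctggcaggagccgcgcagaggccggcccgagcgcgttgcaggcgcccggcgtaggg
Pard3b, 93 bases, chr1:61638574-61638666, plus strand: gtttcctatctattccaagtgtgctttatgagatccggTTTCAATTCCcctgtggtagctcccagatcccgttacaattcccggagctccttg
Tmem121, 250 bases, chr12:113185653-113185902, plus strand: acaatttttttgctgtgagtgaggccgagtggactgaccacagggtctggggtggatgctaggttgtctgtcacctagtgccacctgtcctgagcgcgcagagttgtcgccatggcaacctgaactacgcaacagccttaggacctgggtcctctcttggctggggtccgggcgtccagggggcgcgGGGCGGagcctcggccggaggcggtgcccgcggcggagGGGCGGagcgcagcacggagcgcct

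The 4 promoters were rich in G and C, and 1 of them held a match to a searched IRF motif. Over the 250 bases before the start, G and C made up 71.2% in Plcb1, 72.8% in Chst2, 60% in Pard3b and 66.4% in Tmem121, against a median of 52.4% over 32851 promoters. The dinucleotide CG occurred 22 times in Plcb1, 27 in Chst2, 17 in Pard3b and 20 in Tmem121, against a median of 6. Those 4 counts lay above the median in each case.

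The composite element had 1 match in the 4 promoters, in Pard3b, 203 bases before the start, and 2.3% of all promoters held it. The paired IRF motif (GAAA, 2 bases of any kind, then GAAA, on either strand) had 0 matches in the 4, with 2.98% of all promoters holding it, and TATAAA had 0, with 12.4% holding it. The GC box occurred in Plcb1, Chst2 and Tmem121 and in 32.7% of all promoters. The Plcb1 match lies 35 bases before the start, downstream of the stretch shown. These are letter matches in a short window and say nothing of binding.

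Libraries held 17299285 to 30787679 counts assigned to genes, so 1 count is worth well under 0.1 CPM in each. Irf8 itself, counted over all its exons, was 1490, 1402, 1166 and 1787 CPM in the 4 Itgax-cre pDC libraries, against 5378 to 6536 CPM in the control pDCs. Its log2 fold change was -2.07 (SE 0.13, adjusted p = 4.43e-13, quasi-likelihood test of edgeR with p-values adjusted by Benjamini-Hochberg). Control cDC1s had 4024 CPM ± 168 (SD, n = 8) and control cDC2s 72.2 CPM ± 14.6 (SD, n = 8). A neutrophil marker list stood apart in Itgax-cre pDC replicate 4, at a summed 196 CPM against at most 4.59 CPM in the other 3 libraries of its group. Ngp, S100a8 and S100a9, which also met both thresholds of the choice, did so through that library (46.5, 57.7 and 43.7 CPM there).

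**Figure D1:**
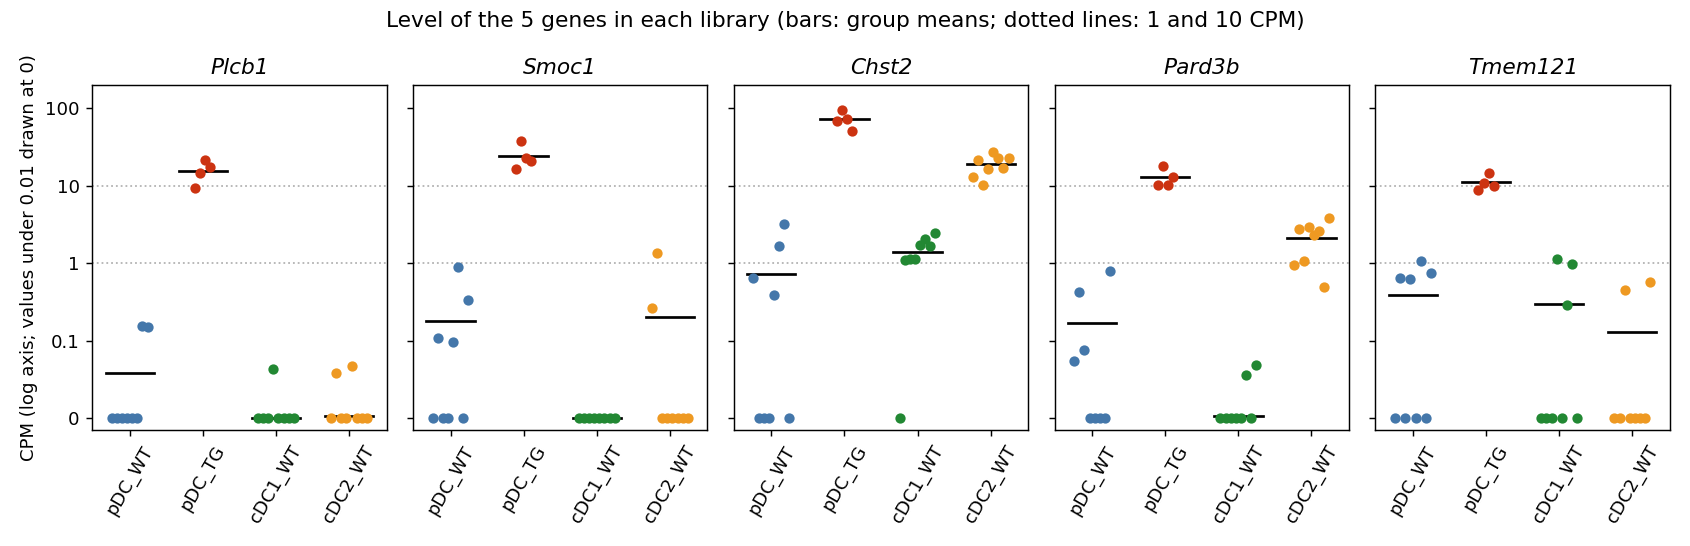
CPM of each gene in every library, on a log axis with values under the lowest tick drawn at 0, by group (pDC WT, pDC TG, cDC1 WT, cDC2 WT), with the group mean as a bar. The genes were chosen for low pDC WT and high pDC TG levels, so the distance between these 2 groups is no result. The cDC2 WT level is raised over cDC1 WT for Chst2 and Pard3b.

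Chst2, the sulfotransferase gene, was the most abundant of the 5 and the one with the clearest level in a cDC subset. The Itgax-cre pDC libraries had 69.0, 95.4, 71.9 and 51.3 CPM, a mean of 71.9 CPM ± 18.1 (SD, n = 4). Control cDC2s had a lowest, median and highest value of 10.3, 19.2 and 27.1 CPM, with every library above 0. The 2 ranges did not overlap, the lowest Itgax-cre pDC library being 1.89-fold above the highest cDC2 library, and the means differed 3.83-fold.

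In control cDC1s Chst2 ran from 0 through a median of 1.39 to 2.45 CPM, and 7 of the 8 libraries had counts. Control pDCs ran from 0 through 0.194 to 3.17 CPM, with 4 libraries at 0 and the highest value in replicate 7. The cDC1 and control pDC ranges overlapped, so their order is not separated by these libraries. The order of the means was Itgax-cre pDCs, cDC2s, cDC1s and control pDCs, with Itgax-cre pDCs 51.2-fold over cDC1s and 98.4-fold over control pDCs.

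Pard3b, the polarity scaffold gene, was likewise highest in Itgax-cre pDCs and next in cDC2s, at a lower level. Its mean in cDC1s (0.0105 CPM) was below that in control pDCs (0.168 CPM), unlike that of Chst2. The Itgax-cre pDC libraries had 10.2, 17.9, 10.3 and 12.9 CPM, a mean of 12.8 CPM ± 3.56 (SD, n = 4). Control cDC2s ran from 0.493 through a median of 2.45 to 3.80 CPM, from 14 to 93 counts per library. All 8 cDC2 libraries held Pard3b counts and all lay below every Itgax-cre pDC library, the closest pair being 2.70-fold apart. Means differed 6.08-fold.

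Control cDC1s held 2 counts of Pard3b in all, 1 in each of 2 libraries. Control pDCs ran from 0 through 0.0269 to 0.789 CPM, with 4 of 8 libraries at 0. Itgax-cre pDCs averaged 76.4-fold over control pDCs. Against the 2 cDC1 counts the ratio was 1212 (exact 95% interval 335 to 10018, for counting error only).

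Plcb1, the phospholipase gene, was absent or nearly so from all 3 control populations. The Itgax-cre pDC libraries had 9.32, 14.4, 21.4 and 17.5 CPM, a mean of 15.7 CPM ± 5.09 (SD, n = 4), which rests on 243 to 642 counts per library. Control pDCs had 9 counts in all, from replicates 7 and 8, with the other 6 libraries at 0 and a highest value of 0.154 CPM. Neither cDC subset had a level above that of single counts. The cDC1 libraries held 1 Plcb1 count in all and the cDC2 libraries 2.

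The Plcb1 mean in Itgax-cre pDCs was 412-fold above that in control pDCs. The ratio to cDC2s was 1528 (exact 95% interval 422 to 12626) and to cDC1s 3026 (542 to 119580), both intervals covering counting error only. These widths come from the 2 and 1 counts below the line, and the 3 control groups are not separable for Plcb1 at this depth.

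Smoc1, the secreted matrix protein gene, was also at or near 0 outside the Itgax-cre pDCs. Its values there were 16.3, 37.7, 22.8 and 20.7 CPM, a mean of 24.4 CPM ± 9.29 (SD, n = 4), with replicate 2 the highest. No count fell on Smoc1 in any of the 8 cDC1 libraries, which allows up to 0.0158 CPM over the group (3 counts). Itgax-cre pDCs were thus at least 1543-fold higher than cDC1s.

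In cDC2s 6 of 8 libraries had no Smoc1 count, replicate 2 had 1.35 CPM and replicate 1 had 0.263 CPM. Control pDCs ran from 0 through 0.0485 to 0.899 CPM, with 4 libraries at 0. Control pDCs and cDC2s overlapped. Itgax-cre pDCs averaged 135-fold over control pDCs and 121-fold over cDC2s, and their lowest library was 12.1-fold above the highest cDC2 library.

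Tmem121 showed the smallest ratio to control pDCs among the 5. The Itgax-cre pDC libraries had 8.71, 10.9, 14.6 and 10.0 CPM, a mean of 11.1 CPM ± 2.55 (SD, n = 4), just inside the upper threshold. Control pDCs ran from 0 through 0.312 to 1.06 CPM, with 4 libraries at 0 and 17 to 27 counts in each of the other 4. Control pDC libraries thus fell into a set without counts and a set with many. The means differed 28.8-fold, and the closest pair of libraries 8.25-fold.

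Tmem121 was at 0 in 5 of 8 cDC1 libraries and reached 1.12 CPM in the highest. It was at 0 in 6 of 8 cDC2 libraries and reached 0.572 CPM. The 3 control groups overlapped one another, and Itgax-cre pDCs averaged 37.0-fold over cDC1s and 86.4-fold over cDC2s.

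The size of these ratios hangs on single control libraries. Over control pDCs, Chst2 was 188-fold without replicate 7, Pard3b 162-fold without replicate 8, Smoc1 315-fold without replicate 6, and Plcb1 729-fold or 712-fold without replicate 7 or 8. Over cDC2s, Smoc1 was 650-fold without replicate 2 and Tmem121 135-fold or 171-fold without replicate 3 or 8. Over cDC1s, Tmem121 was 61.0-fold without replicate 4 and 54.9-fold without replicate 7, up from 37.0-fold with all 8. Ratios over control pDCs also fell with other choices of libraries. Replicates 5 to 8 alone gave 206-fold for Plcb1, 73.1-fold for Smoc1, 55.3-fold for Chst2, 65.1-fold for Pard3b and 24.5-fold for Tmem121. Replicates 1 to 4 alone gave 912-fold for Smoc1, 446-fold for Chst2, 92.3-fold for Pard3b and 35-fold for Tmem121, and held no Plcb1 count. The Chst2 mean in control pDCs was 0.161 CPM in replicates 1 to 4 and 1.30 CPM in replicates 5 to 8, the latter above the threshold of 1 CPM.

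Divided by exon length, the levels in Itgax-cre pDCs fell into a higher and a lower set. Chst2 stood at 9.81 CPM per kb, Tmem121 at 7.03 and Smoc1 at 6.97, and the libraries of these 3 genes overlapped. Plcb1 at 1.41 and Pard3b at 0.976 CPM per kb also overlapped each other, and both lay below every library of the other 3 genes. The median gene tested had 18.8 CPM in Itgax-cre pDCs, on the scale not divided by length. Leaving out 1 Itgax-cre pDC library gave means of 13.75 to 17.76 CPM for Plcb1, 19.94 to 27.07 for Smoc1 and 64.05 to 78.76 for Chst2. Those for Pard3b were 11.16 to 13.7 CPM and those for Tmem121 9.87 to 11.85 CPM. Tmem121 thus fell under the threshold of 10 CPM without replicate 3. Without replicate 4 the means were 15.0 CPM for Plcb1, 25.6 for Smoc1, 78.8 for Chst2, 12.8 for Pard3b and 11.4 for Tmem121.

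The members and genes nearest the thresholds are given with no test. The table holds 13739 genes under 1 CPM in control pDCs, of which 365 (2.66%) exceeded 1 CPM in Itgax-cre pDCs and 15 exceeded 10. Chst2, at 0.731 CPM in control pDCs, was the member nearest the lower threshold, and Ctla4 (1.02 CPM, then 10.8 in Itgax-cre pDCs) and Bank1 (1.03, then 17.9) lay just outside it. Tmem121 was nearest the upper threshold, and Esr1 (0.281, then 9.78) and Il34 (0.263, then 9.49) lay just below it.

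Of the 13739 genes low in control pDCs, 892 (6.49%) exceeded 1 CPM in cDC2s and 776 (5.65%) in cDC1s. Of the 15 genes past both thresholds, 7 exceeded 1 CPM in cDC2s, 4 did so in cDC1s and 7 were under 1 CPM in both. Among the 5 members, Plcb1, Smoc1 and Tmem121 were under 1 CPM in both. The other 10 included genes far higher in cDC2s than in Itgax-cre pDCs, such as Itgam (155 CPM in cDC2s), which encodes CD11b, and Tcf7 (52.4 CPM). They also included Klhl30, at 23.1 CPM in Itgax-cre pDCs and 0 in all cDC libraries. Chst2 and Pard3b differed from Itgam in order, since their cDC2 means were 26.1% and 16.4% of their Itgax-cre pDC means.

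**Figure D2:**
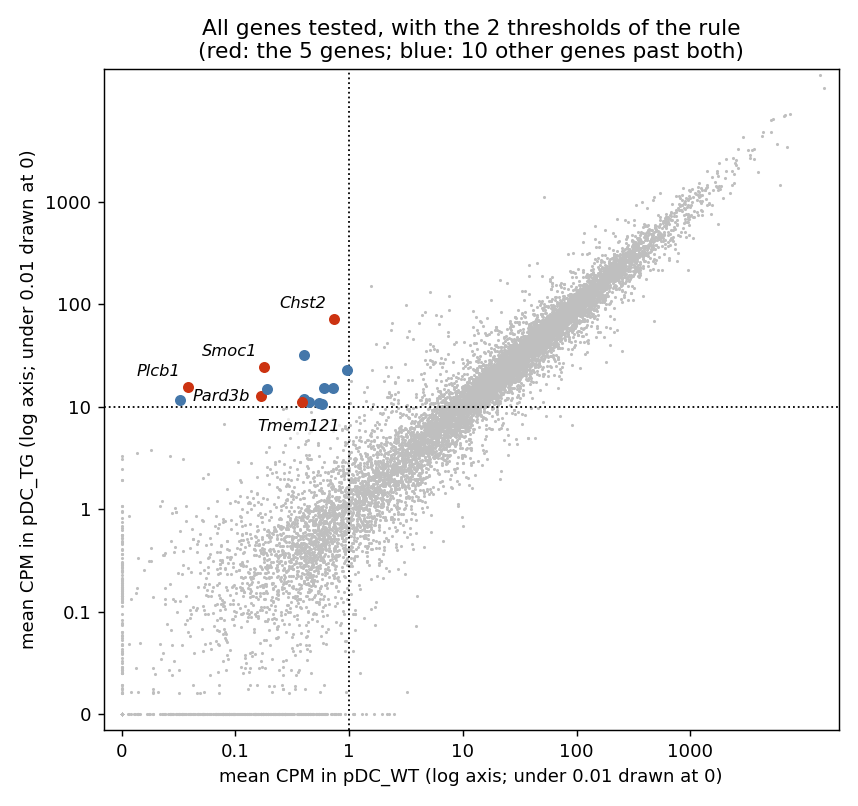
Mean CPM in pDC WT (x) against pDC TG (y) for all genes tested, both on log axes with low values drawn at 0, with dotted lines at the thresholds of 1 and 10 CPM. The 5 genes (red, named) and the 10 other genes past both thresholds (blue) lie in the upper left corner, Chst2 highest at 71.9 CPM.

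Markers of other cell types are given beside these levels, and their part in them was not tested. The pDC marker list summed to 10712 to 14116 CPM in Itgax-cre pDCs and 10735 to 14167 CPM in control pDCs, against at most 445 CPM in cDCs. Of its 12 tested genes 1 was higher and 2 were lower in Itgax-cre than in control pDCs, and single means moved both ways within the sum. Klk1 went from 960 to 217 CPM, Siglech from 2298 to 1454 and Ccr9 from 1449 to 943. Cox6a2 went from 376 to 1003 CPM and Ly6d from 2904 to 4256. The cDC2 list summed to 2678 to 2919 CPM in Itgax-cre pDCs, 1697 to 2365 CPM in control pDCs and 4572 to 5739 CPM in cDC2s, and 5 of its 10 tested genes rose in Itgax-cre pDCs and 1 fell. Those that rose were Itgam (0.401 to 31.9 CPM, 155 in cDC2s), Tmem176a (17.6 to 110, 752 in cDC2s), Tmem176b (38.4 to 242, 1195 in cDC2s), Ltb (145 to 578, 588 in cDC2s) and Clec12a (536 to 1213, 83.2 in cDC2s). Clec12a was lower in cDC2s than in cDC1s (234 CPM) or either pDC group, and its rise in CPM was the largest within the list sum. Cd209a fell from 782 to 320 CPM. The other 4 did not pass, among them Clec4a4 and Esam. Clec4a4, a lectin gene that marks splenic cDC2s, was 0 to 0.0756 CPM in Itgax-cre pDCs against 218 CPM in cDC2s, and Esam was 3.42 against 102 CPM.

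The cDC1 list summed to 150 to 226 CPM in Itgax-cre pDCs, with Batf3 at 0 in all 4 libraries, against 242 to 357 CPM in control pDCs and 6534 to 8482 CPM in cDC1s. Of its 10 tested genes 2 were higher in Itgax-cre than in control pDCs, Tlr3 (0.204 to 2.48 CPM) and Naaa (21.2 to 32.3 CPM), and 4 were lower. Means that went down included Clec9a (91.6 to 6.59 CPM), Cadm1 (43.6 to 26.1 CPM) and Cd24a (37.9 to 18.9 CPM). The plasma cell list summed to 2103 to 2262 CPM in Itgax-cre pDCs and 1050 to 1556 CPM in control pDCs, with 3 genes higher and 3 lower of 7 tested. The NK and T cell list summed to 18.3 to 31.7 and 2.67 to 10.2 CPM, without overlap, and 1 of its 7 tested genes rose, Cd5 (4.58 to 21.3 CPM). Cd3e was at 0 to 1.08 CPM in Itgax-cre pDCs. The B cell list overlapped (5.98 to 25.1 and 2.86 to 28.9 CPM), with 1 gene higher and 0 lower of 6 tested. The monocyte and macrophage list overlapped as well (3129 to 3862 and 2754 to 3668 CPM), with 0 genes higher and 3 lower of 12 tested. On the neutrophil list, whose sum stood apart in Itgax-cre pDC replicate 4, all 5 tested genes were higher. In bulk RNA, more cells expressing a gene and more RNA per cell cannot be told apart.

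The comparison of cDC2s with cDC1s compares groups that the choice of the genes did not use, and it was tested. Plcb1 and Smoc1, however, had enough counts to enter the fit only through the Itgax-cre pDC libraries. Tmem121 had counts in too few cDC libraries to enter a fit of the cDC libraries alone. A test is therefore read in this comparison for Chst2 and Pard3b only. In it 46.2% of the 13159 genes tested differed at an adjusted p under 0.05 (quasi-likelihood test of edgeR, Benjamini-Hochberg over all genes), 23.4% higher in cDC2s and 22.8% lower. Chst2 and Pard3b were called higher in cDC2s. With that background, the share that differed is not a result about the set, and the single genes are described below.

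Chst2 was higher in cDC2s by a log2 fold change of 3.74 (SE 0.66, adjusted p = 2.72e-05 by edgeR), from 1.40 to 18.8 CPM, a 13.4-fold difference of the means. All 8 cDC2 libraries exceeded all 8 cDC1 libraries. A two-sided exact permutation test over the libraries gave p = 0.000155, the smallest it can give. Pard3b was higher in cDC2s by a log2 fold change of 7.09 (SE 0.99, adjusted p = 5.59e-07 by edgeR), again with no overlap and the same exact permutation p = 0.000155. Its size is loosely fixed, since cDC1s held 2 counts against 398 in cDC2s, a ratio of 197 with an exact 95% interval of 54.2 to 1633 for counting error.

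For the genes that cDC libraries alone would not have brought into a test, only the counts are given. Tmem121 had 56 counts in cDC1s, with 5 of 8 libraries at 0, and 23 in cDC2s, with 6 of 8 at 0. Smoc1 had 42 counts in cDC2s, all from replicates 1 and 2, and 0 in cDC1s, and Plcb1 had 2 and 1 counts.

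The relatives and partners of the 5 genes were counted from lists drawn up by function, members left out, and set against the 14.8% of all tested genes that differed between Itgax-cre and control pDCs (7.72% higher, 7.04% lower, median log2 fold change 0 over all genes). Among the phospholipase C isoforms, 10 of 14 were tested, 2 rose and 1 fell, with a median log2 fold change of 0.20. Plcb4, the PLCB1 relative of the adjacent gene, rose from 4.77 CPM ± 1.54 (SD, n = 8) to 34.8 CPM ± 5.61 (SD, n = 4), a log2 fold change of 2.86 (SE 0.32, adjusted p = 9.24e-08 by edgeR). Plcl2, a phospholipase C-like protein without catalytic activity, rose from 42.5 to 78.4 CPM, and Plcb2 fell from 65.5 to 42.5 CPM. In cDC2s against cDC1s, Plcb4 went the other way from Chst2 and Pard3b, at 3.06 CPM in cDC2s and 12.2 in cDC1s (adjusted p = 7.3e-07 by edgeR).

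Of the Gq and calcium signalling genes, 21 of 22 were tested, 4 rose and 7 fell, with a median log2 fold change of -0.36. Of the 3 tested G protein alpha subunits on the list that couple receptors to phospholipase C beta, Gna15 and Gna11 fell, and Gnaq did not pass, at 38.0 CPM in control and 34.2 CPM in Itgax-cre pDCs (adjusted p = 0.569 by edgeR). Gna15 went from 118 to 32.9 CPM (log2 fold change -1.84, adjusted p = 2.6e-06 by edgeR) and Gna11 from 66.0 to 25.3 CPM (-1.38, adjusted p = 5.62e-06). Of the diacylglycerol-responsive kinases, Prkcd fell from 488 to 252 CPM and Prkch rose from 26.7 to 63.0 CPM. Without Itgax-cre pDC replicate 3 the number that fell was 4.

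The SPARC family list around Smoc1 was mostly too low to test, with 2 of 7 genes tested and 0 called. Of the BMP pathway list, 12 of 20 were tested, 3 rose and 0 fell, with a median log2 fold change of 0.11. Smad7, an inhibitor of the pathway, went from 84.4 to 142 CPM (log2 fold change 0.75, adjusted p = 0.0134 by edgeR), and its adjusted p was 0.0567 without Itgax-cre pDC replicate 3. Id3 went from 15.7 to 42.0 CPM (adjusted p = 0.0298) and Smad1 from 46.4 to 60.6 CPM (adjusted p = 0.0433). Id3 lost its call without Itgax-cre replicate 1 (adjusted p = 0.184) or without any 1 of control pDC replicates 3, 7 and 8 (0.0527, 0.0537 and 0.0518), and Smad1 lost it in 8 of the 12 fits that left out 1 library, at an adjusted p of up to 0.205.

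Around Chst2, 27 of 33 sulfotransferases and sulfate donor genes were tested, 2 rose and 5 fell, with a median log2 fold change of -0.07. Ust, which sulfates uronic acid in chondroitin and dermatan sulfate, rose from 19.5 to 60.5 CPM (log2 fold change 1.63, adjusted p = 5.54e-05 by edgeR), and Tpst1, a protein tyrosine sulfotransferase, rose from 1.77 to 7.05 CPM (2.00, adjusted p = 0.00986, but 0.128 when only the 2 groups compared were fitted). Chst12, a chondroitin 4-sulfotransferase, fell from 129 to 78.6 CPM (-0.72, adjusted p = 4.92e-05). Slc35b3, a transporter of the sulfate donor, went from 35.8 to 23.6 CPM, with an adjusted p of 0.0114 that became 0.0752 without Itgax-cre pDC replicate 3. The number that fell was 2 without replicate 4 of the same group.

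Of the genes for selectin ligand synthesis, all 13 were tested, 3 rose and 3 fell, with a median log2 fold change of 0.07. Fut7, the fucosyltransferase that completes sialyl Lewis X, rose from 1.35 CPM ± 0.738 to 8.24 CPM ± 3.38 (SD, n = 8 and n = 4), a log2 fold change of 2.60 (adjusted p = 0.000101 by edgeR). B3gnt5, which starts lactoseries glycolipids, rose from 0.923 to 6.21 CPM (2.79, adjusted p = 0.00654). Fut4, the related fucosyltransferase, fell from 55.8 to 40.1 CPM and Selplg, the scaffold protein PSGL-1, from 1003 to 744 CPM. In cDC2s, where Chst2 was also higher than in cDC1s, Fut4 was 240 against 84.8 CPM and Gcnt1, a core branching enzyme, 140.0 against 41.5 CPM.

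Of the PAR polarity genes around Pard3b, 21 of 21 were tested, 1 rose and 1 fell, which is 9.52% against the 14.8% of all genes. Neither call was secure. Tiam1, an activator of Rac, went from 0.0773 to 0.754 CPM (adjusted p = 0.0255 by edgeR), and the adjusted p was 0.446 without Itgax-cre pDC replicate 1. Pard6a, which binds PAR-3 in the polarity complex, went from 22.6 to 13.4 CPM (adjusted p = 0.0497) and lost its call in 9 of the 12 fits that left out 1 library, at an adjusted p of up to 0.134.

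Between the cDC subsets, where 46.2% of all genes differed, the same lists had calls in both directions. In cDC2s 1 phospholipase C isoform was higher and 3 lower of 10 tested, 11 Gq and calcium genes were higher and 4 lower of 21, and 5 BMP genes were higher and 4 lower of 12. Around Chst2, 6 sulfotransferase genes were higher and 6 lower of 27, and 6 selectin ligand genes were higher and 4 lower of 13. Around Pard3b, 5 PAR genes were higher and 3 lower of 21, among them F11r, a junctional adhesion molecule that binds PAR-3, at 50.4 CPM in cDC2s and 12.8 in cDC1s (adjusted p = 8.36e-05 by edgeR). The secreted ligand gene Bmp2, also a neighbour of Plcb1, was 53.3 CPM in cDC2s and 0.704 in cDC1s (adjusted p = 2.43e-07).

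**Figure D3:**
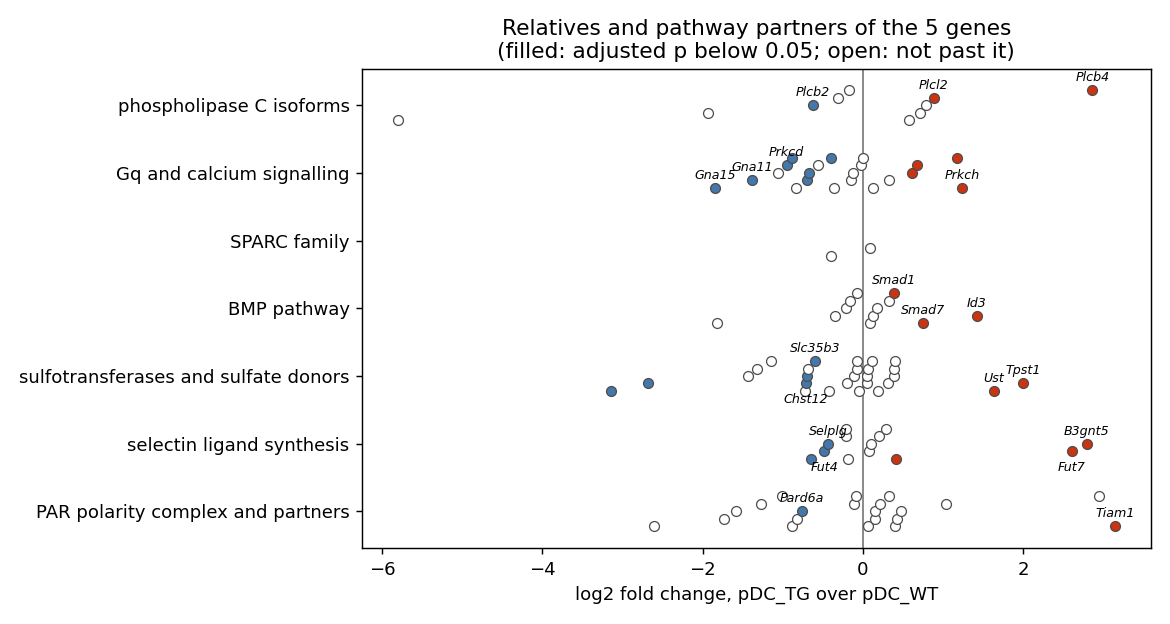
Log2 fold change of pDC TG over pDC WT (x) for each tested gene of the 7 lists (rows), filled where the adjusted p is under 0.05 and open where not, with vertical scatter for legibility only. Plcb4 (2.86), Fut7 (2.60) and B3gnt5 (2.79) lie far to the right of lists whose medians are near 0.

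The genes next to the 5 were examined as the 3 nearest protein-coding genes on each side that the table holds, 30 in all. Of these 22 had enough counts to test, 5 rose and 2 fell in Itgax-cre pDCs, or 31.8% against 14.8% of all genes, with a median log2 fold change of -0.02. Beside Plcb1, Plcb4 starts 183.8 kb beyond its end and is the one tested neighbour of that locus that rose, Tmx4 and Bmp2 not passing. None of the 5 tested neighbours of Smoc1 passed.

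Beside Pard3b, the T cell co-receptor genes Icos and Ctla4 lie 638.5 and 723 kb away. Icos rose from 0.446 to 5.60 CPM (log2 fold change 3.60, adjusted p = 0.000136 by edgeR) and Ctla4 from 1.02 to 10.8 CPM (3.39, adjusted p = 0.000503). Cd28, the next gene of that cluster, did not pass. The T cell gene Cd3e was at most 1.08 CPM in Itgax-cre pDCs and 1.32 in control pDCs, whereas Cd5, of the same marker list, rose from 4.58 to 21.3 CPM, and the part of T cells in these values was not tested. In the cDCs, Icos had 18.2 CPM in cDC1s and 17.4 in cDC2s, and Ctla4 had 8.69 and 0.0375 CPM, an order opposite to that of Pard3b.

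Beside Tmem121, Tedc1 (19.88 kb away) rose from 2.34 to 8.97 CPM (log2 fold change 1.93, adjusted p = 0.00708 by edgeR) and Crip1 (32.05 kb away) from 72.6 to 147 CPM (1.02, adjusted p = 0.0056). Without Itgax-cre pDC replicate 4 the Crip1 log2 fold change was 0.78 and its adjusted p 0.0616. Crip2, beyond Crip1, did not pass. Beside Chst2, Slc9a9 (168.8 kb away), a sodium-proton exchanger, fell from 153 to 96.6 CPM (-0.66, adjusted p = 2.67e-05). Plod2, 2791 kb away, went from 12.8 to 2.16 CPM (adjusted p = 0.0438) and lost its call in 9 of the 12 fits that left out 1 library, at an adjusted p of up to 0.128.

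**Figure D4:**
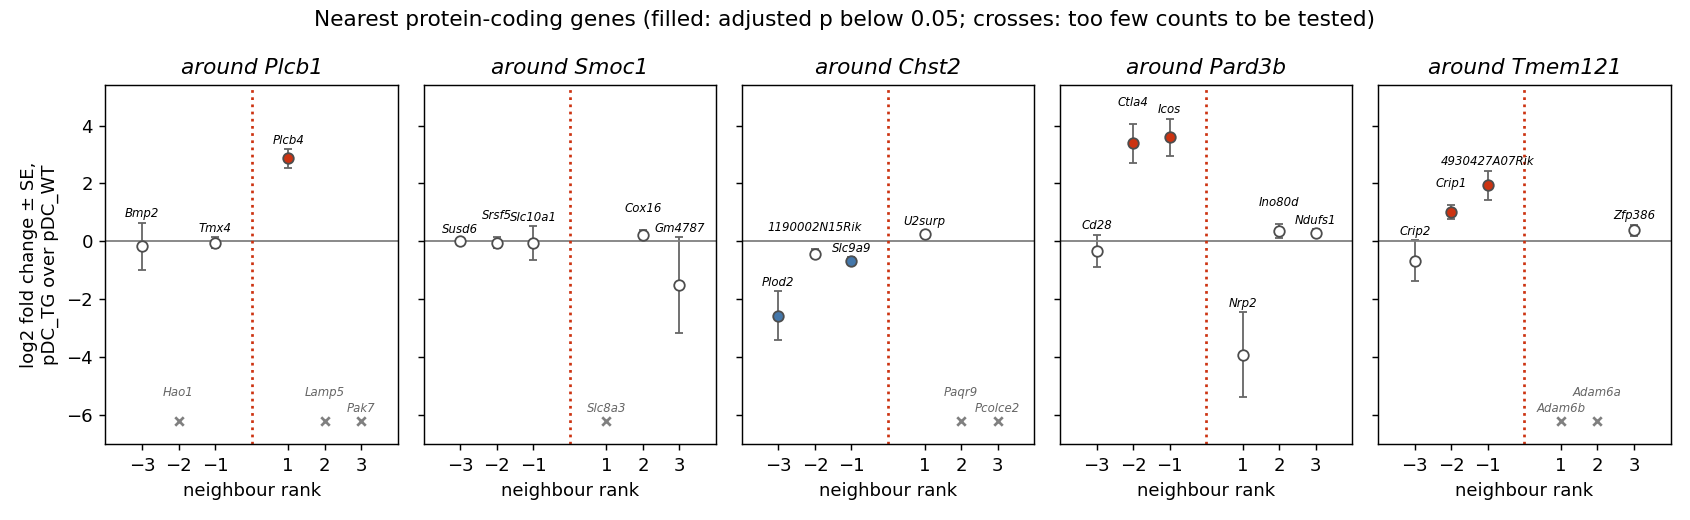
Log2 fold change ± SE of pDC TG over pDC WT (y) for the 3 nearest protein-coding genes on each side (x, neighbour rank, negative at lower coordinates) of each of the 5 genes, filled where the adjusted p is under 0.05, crosses for genes with too few counts to test. Plcb4, Icos, Ctla4, Tedc1 (labelled 4930427A07Rik) and Crip1 are raised, and Slc9a9 and Plod2 are lowered.

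The genes whose log2 CPM followed each member most closely over the 28 libraries are given by Pearson's r. The values are a description, since those libraries include the pDC groups whose levels chose the members. Plcb1 was followed by Zap70 (r = 0.943), Smoc1 (0.923) and Il34 (0.915), and Smoc1 by Plcb1, Il34 (0.894) and Sstr2 (0.872). Tmem121 was followed by Plcb1 (0.81), Sstr2 (0.8) and Apol7e (0.795). All of these were under 1 CPM on average in each of the 3 control groups. Zap70 was also under 1 CPM in Itgax-cre pDCs, at 0.869 CPM against 15.7 CPM for Plcb1.

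Chst2 and Pard3b had companions of another kind. Chst2 was followed by Il18rap (r = 0.864), Abhd17c (0.859) and Med30 (0.833), and Pard3b by Stard5 (0.946), Cxcr4 (0.895) and Gmfg (0.887). These 6 genes were each higher on average in Itgax-cre pDCs than in control pDCs and in cDC2s than in cDC1s. Stard5 had 87.9 CPM in control pDCs, 209 in Itgax-cre pDCs, 70.5 in cDC1s and 166 in cDC2s. Il18rap had 0.00671, 3.28, 0.115 and 2.43 CPM in the same order.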

How the data were processed

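RNA from sorted spleen dendritic cells was amplified with SMART-Seq v4 and sequenced as single reads, per the labels' protocols. The authors deposited raw counts per gene for each library. FastQC 0.11.4, Trimmomatic 0.35, TopHat2 2.1.0, SAMtools 0.1.18 and the build mm10 are named in the submitters' processing notes, and the counting tool and annotation are not given in the sources used here. Reads assigned to no gene (8.23% to 18.7%) and ambiguous reads (1.04% to 1.57%) stayed out.

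Counts were filtered with filterByExpr (minimum count 10, minimum total 15), which all 5 members passed, leaving 13159 genes, scaled by TMM and fitted with edgeR 4.0.16 (R 4.3.3) over all 28 libraries. Adjusted p-values are Benjamini-Hochberg over all genes, with a threshold of 0.05. CPM values use the TMM-scaled library sizes, and CPM per kb divides by the union of exons. Amplified reads carry no molecular identifiers, so intervals and limits cover counting error only. The labels give each library of a group a mouse number and do not say whether groups share mice. Replicates differed by more than sampling noise in every pair (chi-square per degree of freedom at least 33.6). Scripts were tested on simulated data.

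The members, gene lists and tests were chosen with earlier results of these data known. Besides the members and Irf8, the text names up to 4 called genes per list and comparison by smallest adjusted p, the neighbours, the 3 genes with the highest Pearson r (log2 CPM, prior count 2), and the 2 genes nearest each threshold. Other genes past both thresholds, marker genes and counts of 5 or fewer were named after their values were seen. Alternatives were other normalizations, DESeq2 1.42.0, no filter, fewer samples, a replicate block, exact permutation and leaving out each library (of the control groups for levels, added after seeing the data). 1 gene that this rule names is not reported here.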

Additional observations from a re-analysis of the deposited data

Results flagged for a closer look

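In 3 of the 23 combinations of gene and group that were examined, 1 library stood far from the other 7 of its group. Chance marks about 1 in 20 such groups where values are normally distributed, which groups made mostly of zeros are not, so the number marked cannot be set against that rate. Plcb1 in control cDC1 replicate 4 was 0.0431 CPM, a single count, with the other 7 libraries at 0. Smoc1 in control pDC replicate 6 was 0.899 CPM, and the next library had 0.338 CPM. Smoc1 in control cDC2 replicate 2 was 1.35 CPM, and the next library had 0.263 CPM, these 2 libraries holding all the Smoc1 counts of the cDC2 group.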

How the results depend on the processing

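The levels of the 5 genes moved by less than 1 SD in all 190 alternatives, but an SD above the mean makes this a weak check in control pDCs: Chst2 was 0.161 CPM with control replicates 1 to 4 only and 1.30 with 5 to 8 only, Smoc1 0.0267 and 0.334, and Plcb1 0 and 0.0760. Leaving out each control library was added after seeing the data. Of the log2 fold changes of named genes, 1167 kept direction and call, 68 kept direction and lost the call, and 1 reversed: Plcb1 in cDC2s against cDC1s, at -0.005273 with control replicates 1 to 4 only, where neither value passed. With those replicates only, 3921 genes differed between the cDC subsets (2049 higher, 1872 lower in cDC2s) against 6085 (3082 and 3003), fewer libraries being tested. Leaving out 1 library gave 5822 to 6046 genes for that comparison (2940 to 3060 higher, 2864 to 2986 lower) and 1521 to 1952 genes for Itgax-cre against control pDCs (792 to 1016 higher, 708 to 936 lower). Chst2 and Pard3b kept their call between the cDC subsets in every alternative run, at log2 fold changes of 3.50 to 4.21 and 4.39 to 8.60, besides 3.55 to 3.90 and 6.92 to 7.62 when leaving out 1 library. Without control replicates 1 to 4, Tedc1, Crip1, Plcb2, Fut4, Selplg and Smad7 lost their calls (adjusted p = 0.0777, 0.0609, 0.0503, 0.0638, 0.128 and 0.0525 by edgeR), as did Smad1, Pard6a, Tiam1 and Plod2. Without control replicates 5 to 8, Icos (0.0523), Tpst1 (0.0631), Slc35b3 (0.13), Id3, Pard6a, Tiam1 and Plod2 did. Plcb1, Smoc1 and Tmem121 gave no value in the fit of the cDC libraries alone. Smoc1 also gave none with control replicates 5 to 8 only, where no cDC library had a Smoc1 count.

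Same-numbered libraries deviated together weakly (r from -0.0269 to 0.108, with 1 of 8 pairs of cDC1 and cDC2 libraries over 0.1). Each library correlated best with its own number in 8 of 8 cases for cDC1s with cDC2s and 7 of 8 for cDC1s or cDC2s with control pDCs. For Itgax-cre with control pDCs it was 2 of 4. What same-numbered libraries have in common was not tested, and the labels do not state whether control groups share mice. With the replicate block, 3160 genes were higher and 3035 lower in cDC2s, and 1053 higher and 989 lower in Itgax-cre pDCs. Under the block 1 gene of the BMP list rose, 0 of the PAR list changed, and 6 neighbours rose and 1 fell. The named genes that lost a call under it were Smad1, Id3, Pard6a, Tiam1 and Plod2. Levels of a few counts limit the ratios of Plcb1, Smoc1 and Pard3b.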
